A study of Homo sapiens with 8 samples.

Results

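The genes described here are 10 genes known from mucosal and gut epithelium: TFF1, TFF2, TFF3, AGR2, AGR3, DUOX2, DUOXA2, MUC13, CEACAM6 and CLDN18. They were taken by name from the deposited gene count table, with the lanes of each library summed, and are 10 of its 38592 genes. All 10 passed the filter on low counts that left 22184 genes for testing. They were measured in islet-like cells that had been differentiated from the human embryonic stem cell line H1. Each culture received a vector on day 11 of differentiation and was harvested on day 18, and RNA of the whole culture was sequenced. ISL1, PAX6 and PDX1 are homeodomain transcription factors of the developing pancreas, and each was knocked out (KO) in a line of its own. The groups with the ISL1 overexpression vector (ISL1 OE, ISL1 joined to blue fluorescent protein, BFP, through IRES2) were ISL1 KO (n = 3), PAX6 KO (n = 3), PDX1 KO (n = 2) and WT (n = 2). The groups with the control vector, BFP alone, were ISL1 KO (n = 3), PAX6 KO (n = 3), PDX1 KO (n = 3) and WT (n = 2). Every group, WT BFP included, therefore carried a BFP vector. The series calls its replicates biological. Group names are those of the labels. The vector's promoter and the number of clones behind each KO line are not given in the sources used here.

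Trefoil factors are small secreted peptides, held together by disulfide bonds, that are released with mucus and take part in epithelial repair: TFF1 and TFF2 are best known from the stomach and TFF3 from intestinal goblet cells. AGR2 and AGR3 are relatives of the protein disulfide isomerases, and in mice AGR2 is needed to make intestinal mucin. DUOX2 is an oxidase that releases hydrogen peroxide at the apical surface, and DUOXA2 is the maturation factor that carries it out of the endoplasmic reticulum. MUC13 is a transmembrane mucin, CEACAM6 is an adhesion protein anchored in the membrane by a lipid, and CLDN18 is a tight junction claudin with a stomach form and a lung form. Stomach, intestine, liver and pancreas all arise from endoderm, and PDX1 is active in the embryo in the pancreas and in the neighbouring stomach and duodenum.

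The DNA around the starts of 3 members is shown because its arrangement bears on the values below. DUOX2 and DUOXA2 lie head to head on chromosome 15 and were read as a pair, so the DNA between their starts is given whole. CLDN18 has 2 starts, 11349 bases apart, which lead into different first exons, so the window before each start is given, and then the first 60 coding bases of the transcript from each. The intervals are chr15:45114173-45114325 for the DUOX2 and DUOXA2 interval, chr3:137998566-137998815 for the upstream start of CLDN18 and chr3:138009915-138010164 for its downstream start. They are from RefSeq on GRCh38.p14, plus strand, whose table held windows for 7 of the 10 members. Coding bases are from GENCODE 29. In the first 3 sequences, capitals mark matches to a searched motif. In the last pair, capitals mark the 25 bases that differ between the transcripts, and the other 35 are the same.
DUOX2 and DUOXA2 shared interval: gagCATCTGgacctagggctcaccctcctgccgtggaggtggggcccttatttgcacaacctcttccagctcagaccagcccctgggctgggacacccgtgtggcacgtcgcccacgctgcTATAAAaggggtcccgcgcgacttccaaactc
CLDN18 upstream start: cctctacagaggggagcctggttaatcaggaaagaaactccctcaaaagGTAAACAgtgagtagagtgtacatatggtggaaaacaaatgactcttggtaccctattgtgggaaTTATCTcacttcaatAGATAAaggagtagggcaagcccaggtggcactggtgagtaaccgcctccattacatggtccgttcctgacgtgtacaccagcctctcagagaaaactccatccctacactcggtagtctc
CLDN18 downstream start: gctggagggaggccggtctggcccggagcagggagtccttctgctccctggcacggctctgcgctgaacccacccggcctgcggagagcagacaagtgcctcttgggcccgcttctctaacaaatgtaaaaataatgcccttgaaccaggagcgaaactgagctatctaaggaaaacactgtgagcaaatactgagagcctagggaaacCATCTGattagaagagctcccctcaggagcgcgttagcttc
CLDN18-202 first coding bases: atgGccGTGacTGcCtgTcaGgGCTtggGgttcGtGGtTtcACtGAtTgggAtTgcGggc
CLDN18-201 first coding bases: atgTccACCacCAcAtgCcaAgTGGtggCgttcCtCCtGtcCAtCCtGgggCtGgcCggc

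Both strands were searched for TATAAA, the core promoter box near some starts. They were also searched for TGTTTAC, a core bound by forkhead factors, TAATTA, a core bound by homeodomain factors, CAGATG, an E box, and AGATAA, recognised by GATA family factors. The DUOX2 and DUOXA2 interval is 153 bases long. It holds TATAAA on the plus strand 32 bases before the DUOXA2 start, and CAGATG on the minus strand. Over the last 153 bases before the start in 34943 RefSeq windows, 6.84% hold TATAAA and 7.23% hold CAGATG. The window before the upstream RefSeq start of CLDN18 holds TGTTTAC once and AGATAA at 2 places. The window before its downstream RefSeq start holds CAGATG. In GENCODE the first exons begin earlier, at 137998735 for CLDN18-202 and 138010000 for CLDN18-201, so each window runs into a first exon. The CAGATG match, 41 bases before the RefSeq start, lies inside the first exon of CLDN18-201. The TGTTTAC and AGATAA matches lie before that of CLDN18-202. Of the 34943 RefSeq windows at their full 250 bases, 2.98% hold TGTTTAC, 9.19% hold AGATAA, 12.2% hold CAGATG, 10.8% hold TATAAA and 4.35% hold TAATTA. No TAATTA was found in the 3 sequences, and no matches overlapped each other. A match is a description of the letters and was not tested as a binding site.

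Total gene counts ran from 40959445 to 66818593 per library. Levels are given as CPM, counts scaled to a common library total and by the trimmed mean of M values (TMM), or as the authors' TPM, which also divide by transcript length. Calls are genes with an adjusted p under 0.05 by edgeR's quasi-likelihood test, adjusted over all 22184, and log2 differences are given ± SE. ISL1 RNA was 64.7 to 72.0 CPM in ISL1 KO BFP cells, against 285 to 484 CPM in WT BFP cells. It was 61.6 to 84.0 CPM in ISL1 KO ISL1 OE cells and 64.7 to 72.0 CPM in ISL1 KO BFP cells, and 313 to 326 CPM in WT ISL1 OE cells and 285 to 484 CPM in WT BFP cells. ISL1 RNA therefore did not check the vector label. PAX6 RNA was 98.8 to 159 CPM in PAX6 KO BFP cells, against 144 to 235 CPM in WT BFP cells, and PDX1 RNA was 93.1 to 105 CPM in PDX1 KO BFP cells, against 74.0 to 95.04 CPM in WT BFP cells. The lowest correlation between libraries of a group was 0.982 to 0.987 in 6 groups, 0.927 in PAX6 KO ISL1 OE and 0.9 in PDX1 KO ISL1 OE. The libraries labelled PDX1 KO ISL1 OE stood far apart from each other: INS was 324 CPM in replicate 2 and 44875 CPM in replicate 4, and 173 to 371 CPM in PDX1 KO BFP cells. PAX6 and PDX1 RNA were thus still present in the lines labelled PAX6 KO and PDX1 KO. Calls of members that rest on the PDX1 KO ISL1 OE libraries are given with and without each of them.

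Markers of the gut cell types were partly detected and partly absent. All 13 genes of the islet endocrine list reached 1 CPM in some library. The same held for all 12 liver, 12 duct and pancreatic progenitor, 11 mesenchyme and 21 tight junction and epithelial genes. It also held for 19 of 22 intestinal, 10 of 16 gastric and 12 of 18 goblet and mucus genes. The summed intestinal list was 1716 to 2124 CPM in WT BFP cells. In the gastric list MUC5AC, MUC6, GKN1, GKN2, PGC and BARX1, 6 of 16 genes, stayed under 1 CPM in every library. So did MUC2, ATOH1, SPDEF, MUC5B, MUC17 and B3GNT6, 6 of 18 goblet and mucus genes, and 3 of 22 intestinal genes (OLFM4, GPA33 and FABP2). Of 7 airway genes, 6 stayed under 1 CPM, NKX2-1 and the surfactant genes SFTPB, SFTPC and SFTPA1 among them. MUC2, MUC5AC, MUC5B and MUC6, the gel-forming mucins that define mucus-secreting cells of the stomach and gut, were thus near 0 in these cultures.

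The members differed widely among libraries, as the plot of levels by library shows. MUC13 had the widest range, with a highest library 271-fold above its lowest, and AGR3 the narrowest, 20-fold. Between these were CEACAM6 at 76.4-fold, TFF2 at 70.4-fold, AGR2 at 64.4-fold, DUOXA2 at 48.8-fold, CLDN18 at 46.0-fold, TFF3 at 36.2-fold, TFF1 at 28.6-fold and DUOX2 at 24.2-fold. The lowest library for MUC13 and DUOX2 was PAX6 KO ISL1 OE replicate 3; without it MUC13 ranged 45.2-fold and DUOX2 20-fold, and CEACAM6 had the widest range. On the TPM scale, AGR2 was highest in WT BFP cells, at 259.5 and 89.97 TPM, and TFF2 lowest, at 2.09 and 2.09 TPM. DUOXA2 was at 46.8 and 85.1 TPM in WT BFP cells, AGR3 at 56.98 and 42.5 TPM and MUC13 at 51.9 and 33.9 TPM. In the KO BFP cells, TFF3 had the highest TPM of the trefoil genes, with means of 160.2 ± 29.3 TPM in ISL1 KO BFP, 81.7 ± 24.7 TPM in PAX6 KO BFP and 256 ± 45.9 TPM in PDX1 KO BFP cells (SD, n = 3 each).

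**Figure D1:**
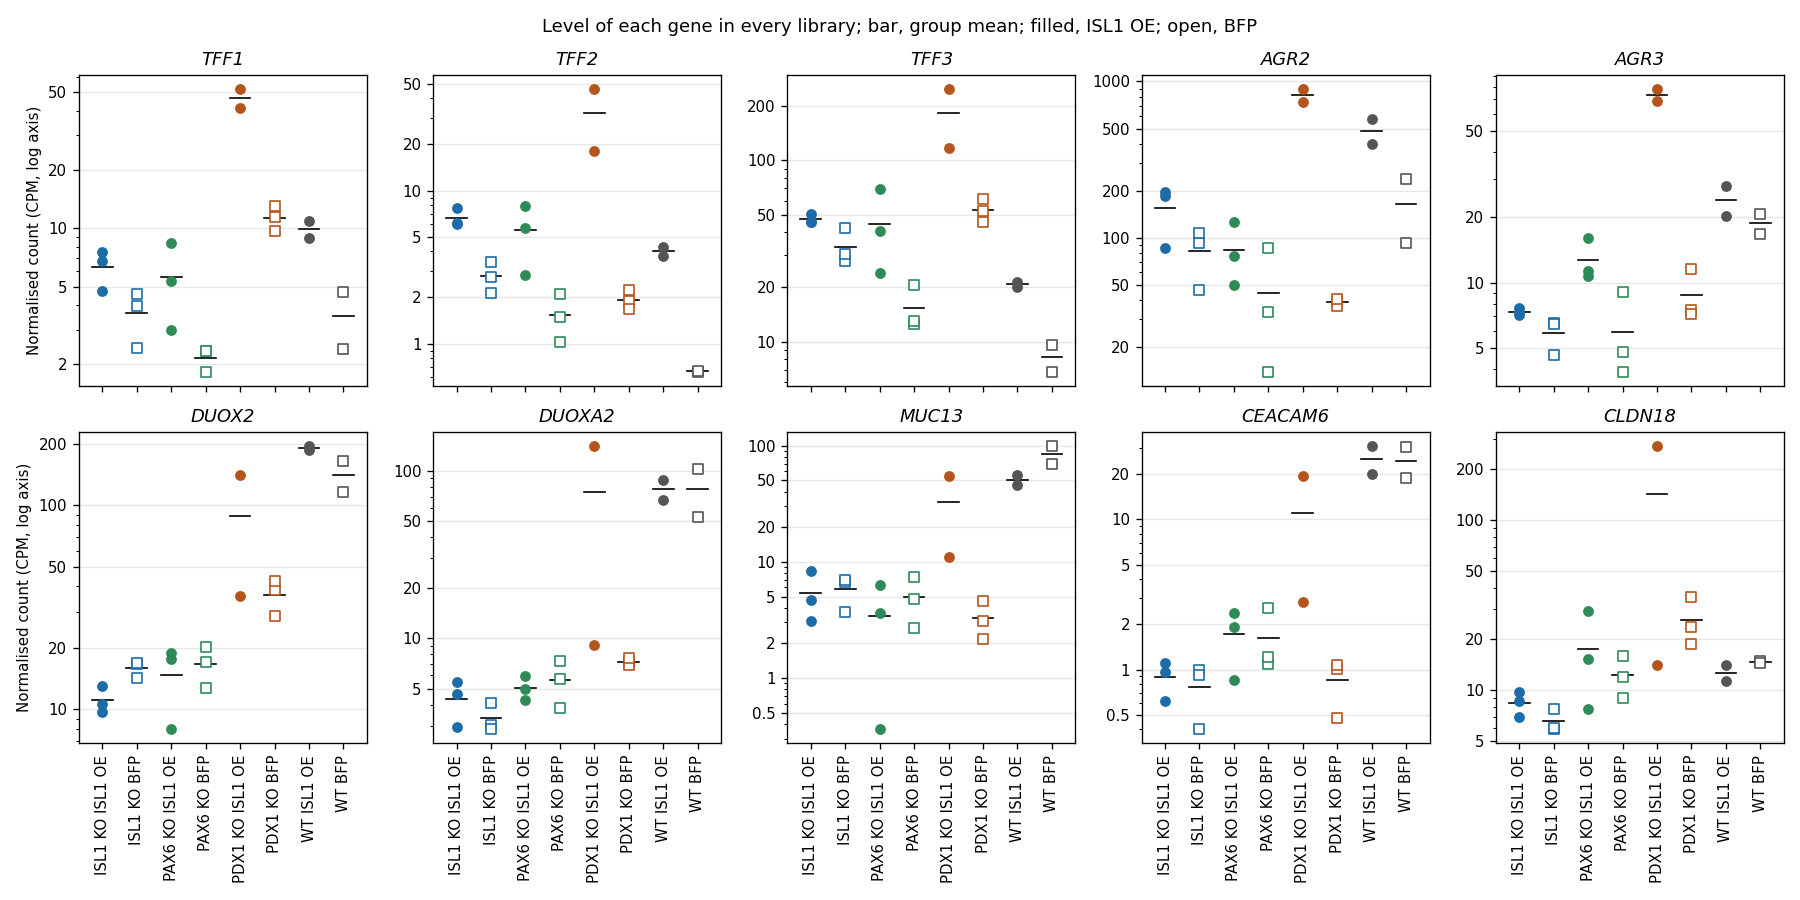
Level of each of the 10 genes in each of the 21 libraries (CPM, TMM-scaled, log axis), by group; each point is 1 library and each line a group mean. In WT BFP libraries MUC13 and CEACAM6 lie above every KO BFP library, and TFF3 lies below every KO BFP library.

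The first question was how each KO changed these genes under the control vector. In all 3 KO lines DUOX2, its maturation factor DUOXA2, MUC13 and CEACAM6, and with them AGR3, fell relative to WT BFP cells. These genes, AGR3 apart, are called surface genes below for short. The name is not a functional class, since DUOXA2 is a maturation factor and the junction protein CLDN18 is left out. TFF2 and TFF3 rose in ISL1 KO and PDX1 KO BFP cells, and TFF1 rose in PDX1 KO BFP cells. In ISL1 KO BFP cells 2 of 10 members were higher, where 2.05% of all genes tested were, and 5 were lower, where 4.48% were. In PAX6 KO BFP cells 5 members were lower, where 4.25% of all genes were. No member was called higher there by edgeR, where 2.41% of all genes were, and DESeq2 called 0 higher and 6 lower, where 4.76% and 6.64% of the genes it tested were. At an unadjusted p under 0.05, 8 members passed in that comparison, where 20.5% of all genes did, with TFF2 and TFF3 on the higher side. In PDX1 KO BFP cells 3 members were higher, where 4.56% of all genes were, and 6 were lower, where 6.84% were. The 10 genes had a median log2 difference from WT BFP of -1.42 in ISL1 KO, where that of all genes was 0.03. It was -1.78 in PAX6 KO, where that of all genes was 0.00, and -1.52 in PDX1 KO BFP cells, where it was 0.02. These comparisons share the 2 WT BFP libraries, so their values stand side by side and are not independent. In RNA of whole cultures, fewer cells of a type and less RNA per cell cannot be told apart.

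**Figure D2:**
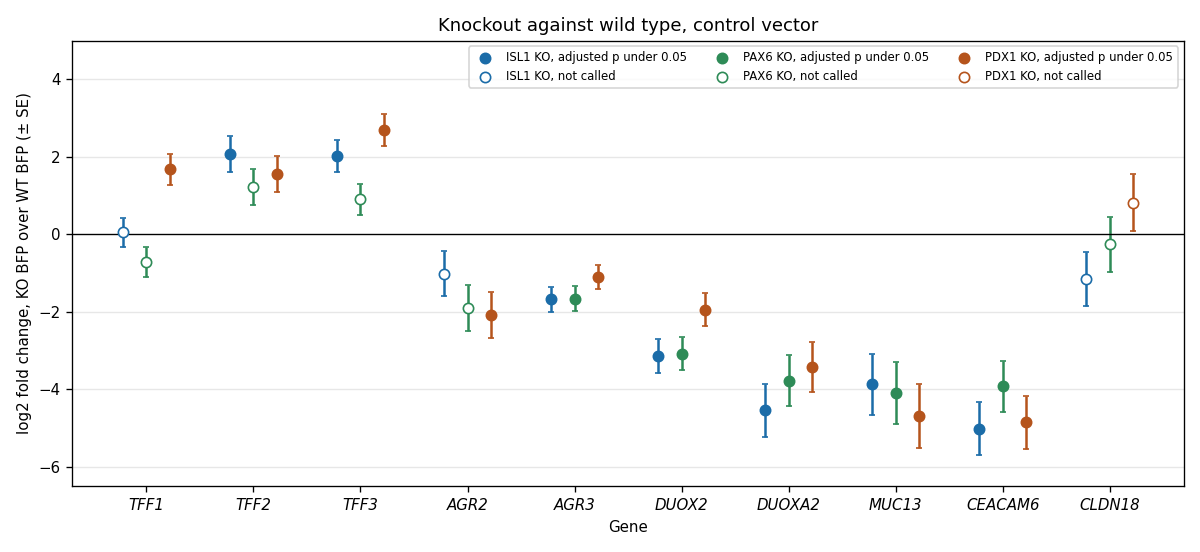
Log2 difference of each KO BFP group from WT BFP for the 10 genes; bars are ± SE from edgeR and filled points passed an adjusted p under 0.05. DUOX2, DUOXA2, MUC13, CEACAM6 and AGR3 lie below 0 in all 3 KO lines, and TFF3 above 0, filled in ISL1 KO and PDX1 KO.

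TFF3, the intestinal trefoil peptide, had 42.1, 27.9 and 30.3 CPM in ISL1 KO BFP cells, 20.5, 12.5 and 13.0 CPM in PAX6 KO BFP cells and 45.4, 52.7 and 60.9 CPM in PDX1 KO BFP cells, against 9.63 and 6.84 CPM in WT BFP cells. Every KO library was above both WT BFP libraries, and the PDX1 KO libraries were highest. The log2 difference was 2.69 ± 0.42, adjusted p = 0.000887 in PDX1 KO and 2.02 ± 0.41, adjusted p = 0.00639 in ISL1 KO BFP cells. It was 0.90 ± 0.39, adjusted p = 0.197 in PAX6 KO BFP cells. The ISL1 KO call was lost without WT BFP replicate 3 (adjusted p = 0.114). TFF2, the stomach trefoil peptide with a tandem trefoil fold, was the lowest of the 3 in TPM, and had 3.41, 2.71 and 2.14 CPM in ISL1 KO BFP cells, 2.10, 1.49 and 1.02 CPM in PAX6 KO BFP cells and 1.89, 1.68 and 2.24 CPM in PDX1 KO BFP cells, against 0.655 and 0.659 CPM in WT BFP cells. The WT BFP libraries were again the lowest, with 33 and 24 counts of TFF2, under 1 CPM. TFF2 was higher in ISL1 KO (2.07 ± 0.47, adjusted p = 0.0132) and PDX1 KO (1.56 ± 0.46, adjusted p = 0.0370). Its difference was 1.22 ± 0.46, adjusted p = 0.126 in PAX6 KO BFP cells. Without WT BFP replicate 1 or 3 the ISL1 KO call was lost (adjusted p = 0.126 and 0.118). The PDX1 KO call was lost without any single library of either group, with an adjusted p of up to 0.224.

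TFF1, the other gastric trefoil peptide, had 4.58, 3.96 and 2.43 CPM in ISL1 KO BFP cells, 2.32, 2.33 and 1.83 CPM in PAX6 KO BFP cells and 9.72, 12.9 and 11.4 CPM in PDX1 KO BFP cells, against 4.67 and 2.39 CPM in WT BFP cells. Only the PDX1 KO libraries were all above WT, and TFF1 was higher there, by 1.68 ± 0.40, adjusted p = 0.0116, a call lost without WT BFP replicate 3 (adjusted p = 0.158). In ISL1 KO the difference was 0.05 ± 0.38, adjusted p = 0.974, with a 95% interval of -0.76 to 0.85, and in PAX6 KO it was -0.71 ± 0.38, adjusted p = 0.308. The trefoil genes also separated the KO lines from each other. TFF1 was lower in ISL1 KO than in PDX1 KO BFP cells (-1.63 ± 0.34, adjusted p = 0.00885) and lower in PAX6 KO than in PDX1 KO BFP cells (-2.39 ± 0.35, adjusted p = 0.00076). TFF3 was lower in PAX6 KO than in PDX1 KO BFP cells (-1.79 ± 0.35, adjusted p = 0.00627). These are 1 of 10 members lower in ISL1 KO against PDX1 KO BFP, where 2.39% of all genes were, and 2 lower in PAX6 KO against PDX1 KO BFP, where 1.91% were. Between ISL1 KO and PAX6 KO BFP no member was called by edgeR, where 2.78% of all genes were. There TFF1, TFF2 and TFF3, all on the side of ISL1 KO, passed an unadjusted p under 0.05, where 11.3% of all genes did, and DESeq2 called 1 member, where 4.27% of genes were.

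The balance within the family differed as well. The ratio of TFF3 to TFF1, on the TPM scale, was 6.66 to 11.97 in ISL1 KO, 5.22 to 8.38 in PAX6 KO and 3.91 to 5.07 in PDX1 KO BFP cells, against 1.92 to 2.63 in WT BFP cells. No KO range overlapped the WT range. The ratio of TFF2 to TFF1 in TPM was 0.508 to 0.651 in ISL1 KO, 0.434 to 0.666 in PAX6 KO and 0.0963 to 0.147 in PDX1 KO BFP cells, against 0.104 to 0.208 in WT BFP cells. Here the PDX1 KO range overlapped that of WT and the other two did not. The 3 genes lie within 50943 bases of each other on the minus strand of chromosome 21 (GRCh38, GENCODE 29): TFF1 (ENSG00000160182) at 42362282 to 42366594, TFF2 (ENSG00000160181) at 42346357 to 42351128, and TFF3 (ENSG00000160180) at 42311667 to 42315651. Between 54.5% and 61.6% of the TFF3 transcript counts in a library were assigned by the authors' counting to TFF3-203, annotated as a processed transcript without a coding sequence. For TFF2, the coding TFF2-201 held 30.1% to 100% of the counts in a library, with a median of 93.5%. The processed transcripts TFF2-202 and TFF2-203 held up to 37.1% and 50.1%.

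AGR3, a secretory pathway isomerase relative, had 6.50, 6.47 and 4.66 CPM in ISL1 KO BFP cells, 4.79, 9.12 and 3.90 CPM in PAX6 KO BFP cells and 7.48, 7.22 and 11.6 CPM in PDX1 KO BFP cells, against 20.9 and 16.8 CPM in WT BFP cells. Every KO library was below both WT BFP libraries. AGR3 fell by 1.68 in ISL1 KO (SE 0.32, adjusted p = 0.00410), by 1.66 in PAX6 KO (SE 0.32, adjusted p = 0.00534) and by 1.10 in PDX1 KO BFP cells (SE 0.32, adjusted p = 0.0314), on the log2 scale. Without WT BFP replicate 1 the 3 calls were lost (adjusted p = 0.0582 in ISL1 KO, 0.0844 for PAX6 KO, 0.268 for PDX1 KO). The PDX1 KO call was also lost without WT BFP replicate 3 (adjusted p = 0.0820) and without PDX1 KO BFP replicate 1 or 2 (adjusted p = 0.102 and 0.118), and with scaling by library size alone (adjusted p = 0.0573).

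AGR2, its better known neighbour in the mucin pathway, had 92.9, 108 and 46.2 CPM in ISL1 KO BFP cells, 33.6, 86.1 and 13.9 CPM in PAX6 KO BFP cells and 39.5, 36.5 and 40.3 CPM in PDX1 KO BFP cells, against 239 and 92.6 CPM in WT BFP cells. The WT BFP libraries differed widely, and only PDX1 KO passed the test (-2.09 ± 0.59, adjusted p = 0.0293). That call was lost without WT BFP replicate 1 (adjusted p = 0.428) and without any 1 of the PDX1 KO BFP libraries (adjusted p = 0.0774, 0.0923 and 0.0852). The difference was -1.90 ± 0.59, adjusted p = 0.0626 in PAX6 KO and -1.01 ± 0.59, adjusted p = 0.358 in ISL1 KO BFP cells. AGR2 (ENSG00000106541, 16791811 to 16833433) and AGR3 (ENSG00000173467, 16859405 to 16881987) lie on the minus strand of chromosome 7, and their starts are 48554 bases apart. They are paralogs, so reads that match both could be split between them by the counting.

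DUOX2, the oxidase, had 16.6, 14.3 and 16.8 CPM in ISL1 KO BFP cells, 12.7, 20.2 and 17.1 CPM in PAX6 KO BFP cells and 38.6, 28.7 and 42.3 CPM in PDX1 KO BFP cells, against 115.8 and 165 CPM in WT BFP cells. The KO and WT libraries did not overlap, and the PDX1 KO libraries lay between those of the other KO lines and WT. DUOX2 was lower in ISL1 KO (-3.14 ± 0.43, adjusted p = 0.00037), PAX6 KO (-3.08 ± 0.43, adjusted p = 0.000602) and PDX1 KO BFP cells (-1.94 ± 0.42, adjusted p = 0.00630). The last call was lost without WT BFP replicate 3 (adjusted p = 0.0770). Between ISL1 KO and PDX1 KO BFP cells its difference was -1.20 ± 0.38, adjusted p = 0.0800, and between PAX6 KO and PDX1 KO BFP cells it was -1.13 ± 0.38, adjusted p = 0.127.

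DUOXA2, its maturation factor, had 4.11, 3.02 and 2.87 CPM in ISL1 KO BFP cells, 3.84, 5.74 and 7.32 CPM in PAX6 KO BFP cells and 7.23, 6.92 and 7.62 CPM in PDX1 KO BFP cells, against 53.3 and 102 CPM in WT BFP cells. The highest KO BFP library was at 7.62 CPM and the lower WT BFP library at 53.3 CPM. DUOXA2 was lower in ISL1 KO (-4.54 ± 0.68, adjusted p = 0.000709), PAX6 KO (-3.78 ± 0.66, adjusted p = 0.00292) and PDX1 KO BFP cells (-3.42 ± 0.65, adjusted p = 0.00298). These 3 calls held without each single library. On the TPM scale the ratio of DUOXA2 to DUOX2 was 0.655 to 0.947 in ISL1 KO, 1.11 to 1.61 in PAX6 KO and 0.713 to 0.946 in PDX1 KO BFP cells, against 1.82 to 2.45 in WT BFP cells. The ratio was lower in every KO BFP library than in either WT BFP library.

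DUOX2 (ENSG00000140279) lies at 45092650 to 45114344 on the minus strand of chromosome 15, and DUOXA2 (ENSG00000140274) at 45114321 to 45118421 on the plus strand, so that in GENCODE 29 their annotated 5′ ends overlap by 24 bases. The RefSeq starts above, at 45114172 for DUOX2 and 45114326 for DUOXA2, instead leave 153 bases between them, so the annotations differ in where DUOX2 begins. Library preparation did not keep strand, so reads in an overlap could belong to either gene. DUOXA2 also overlaps its paralog DUOXA1 on the opposite strand by 1055 bases. The neighbouring paralogs, the oxidase DUOX1 and its maturation factor DUOXA1, were higher in PDX1 KO BFP cells. DUOX1 was 22.1 to 30.5 CPM in PDX1 KO BFP cells, against 3.77 to 5.16 CPM in WT BFP cells (2.51 ± 0.61, adjusted p = 0.0129). DUOXA1 was 7.15 to 12.6 CPM in PDX1 KO BFP cells, against 1.41 to 1.70 CPM in WT BFP cells (2.69 ± 0.52, adjusted p = 0.00350).

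MUC13, the transmembrane mucin, had 6.68, 6.92 and 3.70 CPM in ISL1 KO BFP cells, 4.79, 7.37 and 2.68 CPM in PAX6 KO BFP cells and 4.57, 3.10 and 2.18 CPM in PDX1 KO BFP cells, against 98.4 and 69.7 CPM in WT BFP cells. The highest KO BFP library was at 7.37 CPM and the lower WT BFP library at 69.7 CPM. Its mean was 5.77 ± 1.79 CPM in ISL1 KO, 4.95 ± 2.35 CPM in PAX6 KO and 3.28 ± 1.21 CPM in PDX1 KO BFP cells (SD, n = 3 each), against 84.1 ± 20.3 CPM in WT BFP cells (SD, n = 2). MUC13 was lower in ISL1 KO (-3.87 ± 0.79, adjusted p = 0.00727), PAX6 KO (-4.09 ± 0.80, adjusted p = 0.00654) and PDX1 KO BFP cells (-4.68 ± 0.82, adjusted p = 0.00177). Without WT BFP replicate 1 the adjusted p was 0.0524 in ISL1 KO and 0.0542 in PAX6 KO. Without ISL1 KO BFP replicate 3 it was 0.0502 in ISL1 KO. MUC13 (ENSG00000173702) lies on the minus strand of chromosome 3 at 124905442 to 124953819.

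CEACAM6, the adhesion protein, had 0.986, 0.915 and 0.402 CPM in ISL1 KO BFP cells, 1.10, 2.57 and 1.21 CPM in PAX6 KO BFP cells and 0.477, 1.01 and 1.08 CPM in PDX1 KO BFP cells, against 30.5 and 18.8 CPM in WT BFP cells. The highest KO BFP library was at 2.57 CPM and the lower WT BFP library at 18.8 CPM. CEACAM6 was lower in ISL1 KO (-5.01 ± 0.69, adjusted p = 0.000374), PAX6 KO (-3.92 ± 0.66, adjusted p = 0.00221) and PDX1 KO BFP cells (-4.85 ± 0.68, adjusted p = 0.000466), and these 3 calls held without each single library. CEACAM6 (ENSG00000086548) lies on the plus strand of chromosome 19 at 41750977 to 41772208. An annotated readthrough gene shares 10306 bases with it, so reads from it could be counted as CEACAM6. CEACAM5, a close paralog, stayed under 1 CPM in every library.

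CLDN18, the tight junction claudin, had 5.92, 7.75 and 6.01 CPM in ISL1 KO BFP cells, 15.9, 11.9 and 8.96 CPM in PAX6 KO BFP cells and 18.7, 23.4 and 35.4 CPM in PDX1 KO BFP cells, against 14.8 and 14.5 CPM in WT BFP cells. The ISL1 KO libraries were all below WT, the PDX1 KO libraries all above it, and the PAX6 KO and WT libraries overlapped. No KO passed the test against WT, with -1.16 ± 0.70, adjusted p = 0.384 in ISL1 KO, -0.26 ± 0.71, adjusted p = 0.902 in PAX6 KO and 0.82 ± 0.73, adjusted p = 0.561 in PDX1 KO BFP cells. The 95% interval in ISL1 KO was -2.64 to 0.32. The spread behind these tests is shared with PDX1 KO ISL1 OE, where CLDN18 differed most between replicates. Without PAX6 KO ISL1 OE replicate 3 and PDX1 KO ISL1 OE replicate 4, CLDN18 was lower in ISL1 KO BFP cells (-1.17, adjusted p = 0.00710) and higher in PDX1 KO BFP cells (0.80, adjusted p = 0.0495). In that smaller fit 15.1% of all genes were lower in ISL1 KO BFP and 15.8% higher in PDX1 KO BFP.

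Setting aside those 2 libraries also moved the counts in the KO comparisons. Then 8 members were called in PAX6 KO BFP, with TFF2, TFF3 and AGR2 added (adjusted p = 0.0156, 0.0155 and 0.0174). There 13.9% of all genes were higher and 14.9% lower in PAX6 KO BFP, against 2.41% and 4.25% with all libraries. With 1 library left out at a time, fewest members were called without a WT BFP library, which leaves 1 in that group. It was replicate 1 for ISL1 KO and PAX6 KO, and replicate 3 for PDX1 KO. The share of all genes called in those fits is not given. Fewer calls among the members can thus not be told from fewer calls over all genes.

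The second question was what the ISL1 vector did within each genotype. In PDX1 KO cells 9 of the 10 members were higher in the libraries labelled ISL1 OE than in those with BFP, where 9.09% of all genes were, and none was lower, where 5.34% were. The median log2 difference of the members was 3.20, and of all genes 0.07. In PAX6 KO cells 1 member, TFF2, was higher, where 0.203% of all genes were. In WT cells edgeR called no member, where 0.0361% of all genes were higher, and in ISL1 KO cells it called no member, where 0.424% of all genes were called. DESeq2 called 1 member higher in WT cells, where 0.196% of genes were, 1 in ISL1 KO cells, where 0.906% were, and 4 in PAX6 KO cells, where 0.968% were. At an unadjusted p under 0.05, TFF1, TFF2, TFF3 and AGR2 passed in WT cells, where 3.8% of all genes did, TFF1 and TFF2 in ISL1 KO cells, where 7.92% did, and 4 members in PAX6 KO cells, where 10.7% did.

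**Figure D3:**
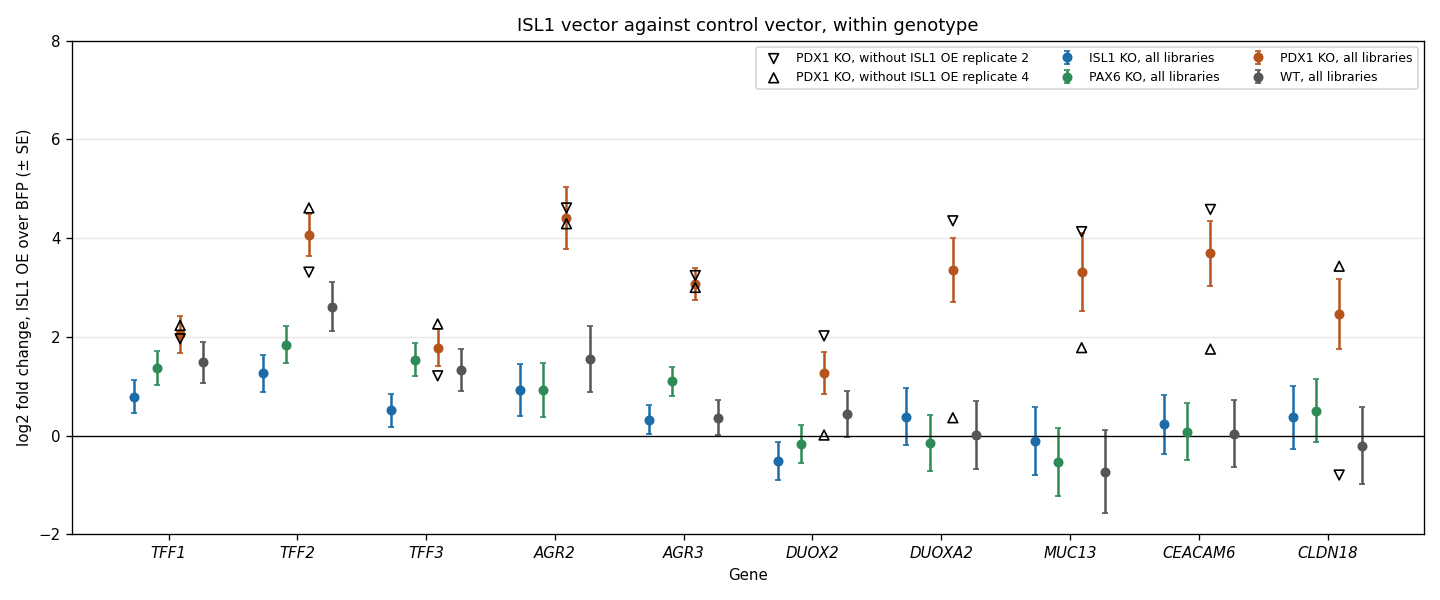
Log2 difference of ISL1 OE from BFP libraries within each genotype for the 10 genes; bars are ± SE from edgeR, and open triangles give PDX1 KO without ISL1 OE replicate 2 or 4. All 10 PDX1 KO points lie above 0, and the triangles lie far apart for DUOX2, DUOXA2, MUC13, CEACAM6 and CLDN18.

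The PDX1 KO comparison rests on 2 libraries that differed from each other. TFF1 had 52.1 and 41.8 CPM in PDX1 KO ISL1 OE replicates 2 and 4, against 9.72, 12.9 and 11.4 CPM in PDX1 KO BFP cells. TFF2 had 46.1 and 18.2 CPM in the ISL1 OE replicates, against 1.89, 1.68 and 2.24 CPM in the BFP cells. TFF3 had 248 and 116.4 CPM in the ISL1 OE replicates, against 45.4, 52.7 and 60.9 CPM in the BFP cells. In CPM both ISL1 OE libraries were above all BFP libraries in each trefoil gene, and replicate 2 was the higher. On the TPM scale TFF3 had 1263 and 227 TPM in the ISL1 OE replicates, against 216, 245 and 306 TPM in the BFP cells, so that replicate 4 lay within the BFP range. The log2 difference was 2.05 ± 0.37, adjusted p = 0.00259 for TFF1, 4.06 ± 0.43, adjusted p = 6.92e-05 for TFF2 and 1.78 ± 0.37, adjusted p = 0.00587 for TFF3.

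The disulfide isomerase relatives were high in both PDX1 KO ISL1 OE libraries. AGR2 had 739 and 896 CPM in PDX1 KO ISL1 OE cells, against 39.5, 36.5 and 40.3 CPM in PDX1 KO BFP cells (4.40 ± 0.63, adjusted p = 0.000546). AGR3 had 68.6 and 78.2 CPM in PDX1 KO ISL1 OE cells, against 7.48, 7.22 and 11.6 CPM in PDX1 KO BFP cells (3.07 ± 0.32, adjusted p = 6.92e-05). In CPM these were the highest of all 21 libraries in both genes. In TPM they were so for AGR3, but AGR2 had 934 and 478 TPM in PDX1 KO ISL1 OE replicates 2 and 4 and 459.7 and 629 TPM in WT ISL1 OE cells, so that replicate 4 lay below a WT library. TFF1, TFF2, TFF3, AGR2 and AGR3 were still called when replicate 2 or replicate 4 was left out. Without replicate 4 the log2 difference was 2.23 for TFF1, 4.61 for TFF2, 2.26 for TFF3, 4.29 for AGR2 and 3.0 for AGR3. Without replicate 2 it was 1.96 for TFF1, 3.31 for TFF2, 1.21 for TFF3 (adjusted p = 0.0204), 4.61 for AGR2 and 3.24 for AGR3.

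The surface genes were higher in replicate 4 than in replicate 2. DUOX2 had 36.0 and 140.2 CPM in PDX1 KO ISL1 OE replicates 2 and 4, against 38.6, 28.7 and 42.3 CPM in PDX1 KO BFP cells. DUOXA2 had 9.12 and 140.0 CPM in the ISL1 OE replicates, against 7.23, 6.92 and 7.62 CPM in the BFP cells. Replicate 2 lay within the BFP range for DUOX2 and above it for DUOXA2, and replicate 4 was above every BFP library for both. MUC13 had 11.0 and 54.6 CPM in the ISL1 OE replicates, against 4.57, 3.10 and 2.18 CPM in the BFP cells, and CEACAM6 had 2.82 and 19.3 CPM in the ISL1 OE replicates, against 0.477, 1.01 and 1.08 CPM in the BFP cells. The log2 difference was 3.36 ± 0.65, adjusted p = 0.00384 for DUOXA2, 3.32 ± 0.79, adjusted p = 0.0119 for MUC13 and 3.69 ± 0.66, adjusted p = 0.00254 for CEACAM6, and 1.27 ± 0.42, adjusted p = 0.0507 for DUOX2, the member that missed the threshold here and was called by DESeq2, with relative log expression scaling and without a filter (adjusted p = 0.0156, 0.0384 and 0.0483). Without replicate 4 none of these 4 was called: the log2 difference was 0.01 for DUOX2, 0.36 for DUOXA2, 1.78 for MUC13 and 1.75 for CEACAM6, with adjusted p of 0.996, 0.770, 0.310 and 0.132. Without replicate 2 all 4 were called, at 2.02 for DUOX2 (adjusted p = 0.00025), 4.35 for DUOXA2, 4.13 for MUC13 and 4.58 for CEACAM6. MUC13 also lost its call without PDX1 KO BFP replicate 3 (adjusted p = 0.0581). The TMM factor of replicate 4 was the lowest, 0.707, which raises its CPM. On the TPM scale, which has no such factor, MUC13 had 6.91 and 14.01 TPM in the ISL1 OE replicates, against 2.75, 1.75 and 1.79 TPM in the BFP cells, and DUOX2 had 10.2 and 14.8 TPM in the ISL1 OE replicates, against 10.5, 7.23 and 11.7 TPM in the BFP cells.

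CLDN18 was higher in replicate 2 than in replicate 4. It had 272 and 14 CPM in PDX1 KO ISL1 OE replicates 2 and 4, against 18.7, 23.4 and 35.4 CPM in PDX1 KO BFP cells. Replicate 2 was the highest of all 21 libraries, and replicate 4 was below every PDX1 KO BFP library, so the groups overlapped. The log2 difference was 2.47 ± 0.71, adjusted p = 0.0289. Without replicate 2 it was -0.80 (adjusted p = 0.220), and without replicate 4 it was 3.43 (adjusted p = 0.000341). The call was also lost without PDX1 KO BFP replicate 1, 2 or 3 (adjusted p = 0.0937, 0.0796 and 0.0609), and with scaling by library size alone (adjusted p = 0.0512).

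Without replicate 4, 6 members remained called in PDX1 KO, where 2.51% of all genes were higher, and without replicate 2, 9 were called, where 23.3% were. In an edgeR fit of the PDX1 KO libraries alone, no member passed, with adjusted p of 0.154 to 0.353, and 0% of the 20006 genes tested were called. DESeq2 on all libraries called all 10 higher, where 14.1% of genes were. The summed islet endocrine list was 26697 to 27290.0 CPM in PDX1 KO ISL1 OE cells, against 47441 to 51061 CPM in PDX1 KO BFP cells, and the summed liver list was 10311 to 45898 CPM in PDX1 KO ISL1 OE cells, against 6580.0 to 7231 CPM in PDX1 KO BFP cells. The part of these other cell types in the members' values was not tested.

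In WT, ISL1 KO and PAX6 KO cells, each ISL1 OE library was above each BFP library of its genotype in TFF1, TFF2 and TFF3, in CPM. Among these, edgeR called only TFF2 in PAX6 KO cells. The share of all genes that separate in this way is not given, and 2 libraries on each side, as in WT, can separate by chance. TFF2 had 5.70, 2.80 and 7.98 CPM in PAX6 KO ISL1 OE cells, against 2.10, 1.49 and 1.02 CPM in PAX6 KO BFP cells, and was called (1.84 ± 0.38, adjusted p = 0.0426). The call was lost without any library of the comparison other than PAX6 KO ISL1 OE replicate 2, with an adjusted p of up to 0.59 over all settings, and it held in the fit without replicate 3 and PDX1 KO ISL1 OE replicate 4 (1.48, adjusted p = 0.0103), where 1.84% of all genes were higher. TFF3 had 40.7, 24.01 and 69.4 CPM in PAX6 KO ISL1 OE cells, against 20.5, 12.5 and 13.0 CPM in PAX6 KO BFP cells (1.54 ± 0.34, adjusted p = 0.0647).

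In WT cells TFF2 had 4.30 and 3.73 CPM with the ISL1 vector, against 0.655 and 0.659 CPM with BFP (2.61 ± 0.50, adjusted p = 0.107). TFF3 had 21.4 and 20.1 CPM in WT ISL1 OE cells, against 9.63 and 6.84 CPM in WT BFP cells (1.33 ± 0.42, adjusted p = 0.741), and TFF1 had 8.91 and 10.9 CPM in WT ISL1 OE cells, against 4.67 and 2.39 CPM in WT BFP cells (1.48 ± 0.42, adjusted p = 0.630). The ISL1 OE and BFP libraries did not overlap in any of these. Without PAX6 KO ISL1 OE replicate 3 and PDX1 KO ISL1 OE replicate 4, all 3 were called in WT cells (adjusted p = 0.00205 for TFF2, 0.0203 for TFF3 and 0.0413 for TFF1), where 0.796% of all genes were higher. In ISL1 KO cells TFF2 had 7.63, 6.13 and 5.996 CPM with the ISL1 vector, against 3.41, 2.71 and 2.14 CPM with BFP (1.26 ± 0.37, adjusted p = 0.197). In that smaller fit it was called too (adjusted p = 0.00892), where 2.35% of all genes were higher. AGR2 had 397 and 573 CPM in WT ISL1 OE cells, against 239 and 92.6 CPM in WT BFP cells, without overlap (1.55 ± 0.66, adjusted p = 1).

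By edgeR with these settings, none of the surface genes passed for the ISL1 vector in WT, ISL1 KO or PAX6 KO cells. In WT cells the log2 difference was 0.44 ± 0.46 for DUOX2, 0.01 ± 0.69 for DUOXA2, 0.04 ± 0.68 for CEACAM6 and -0.73 ± 0.84 for MUC13. The 95% interval for DUOXA2 in WT was -1.45 to 1.46. Of the differences between genotypes in the vector effect, 1 was called: AGR3 responded more in PDX1 KO than in WT cells, by 2.71 ± 0.48, adjusted p = 0.00950, where 1.19% of all genes were called higher. That call was lost without WT BFP replicate 1 (adjusted p = 0.0518) and without WT ISL1 OE replicate 1 or 2 (adjusted p = 0.132 and 0.0510). It was kept without PDX1 KO ISL1 OE replicate 2 (2.85, adjusted p = 0.000878) and without replicate 4 (2.63, adjusted p = 0.0247). None was called in ISL1 KO minus WT, where 0.00451% of all genes were, or in PAX6 KO minus WT, where 0% were. At an unadjusted p under 0.05, 7 members passed in PDX1 KO minus WT, where 16.8% of all genes did, 0 in PAX6 KO minus WT, where 3.38% did, and 1, TFF2, in ISL1 KO minus WT, where 2.93% did. DESeq2 called 5 members in PDX1 KO minus WT, where 5.5% of genes were, and 0 in PAX6 KO and ISL1 KO minus WT, where 0.0434% and 0.0995% were.

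CLDN18 transcripts were read by their first exon. CLDN18-202 (ENST00000343735), from the upstream start with first exon at 137998735 to 137999088 on chromosome 3, is the stomach form, and CLDN18-201 (ENST00000183605), with first exon at 138010000 to 138010445, is the lung form. The gene (ENSG00000066405) spans 137998735 to 138033655 on the plus strand. CLDN18-202 held 53.8% to 95.4% of the CLDN18 transcript counts over the 21 libraries, with a median of 78.7%, and CLDN18-201 held 0% to 34.1%, with a median of 13.1%. The upstream form was the larger in every library. By group CLDN18-202 held 53.8% to 79.9% in ISL1 KO, 84.4% to 95.4% in PAX6 KO and 81.6% to 84.8% in PDX1 KO BFP cells, against 60.1% to 85.6% in WT BFP cells. The KO and WT ranges overlapped in ISL1 KO, PAX6 KO and PDX1 KO. In PDX1 KO ISL1 OE cells it held 77.3% to 79.3%, although the level of CLDN18 was 272 and 14 CPM in the same libraries. These shares are the authors' estimates from reads without strand, and were not tested.

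**Figure D4:**
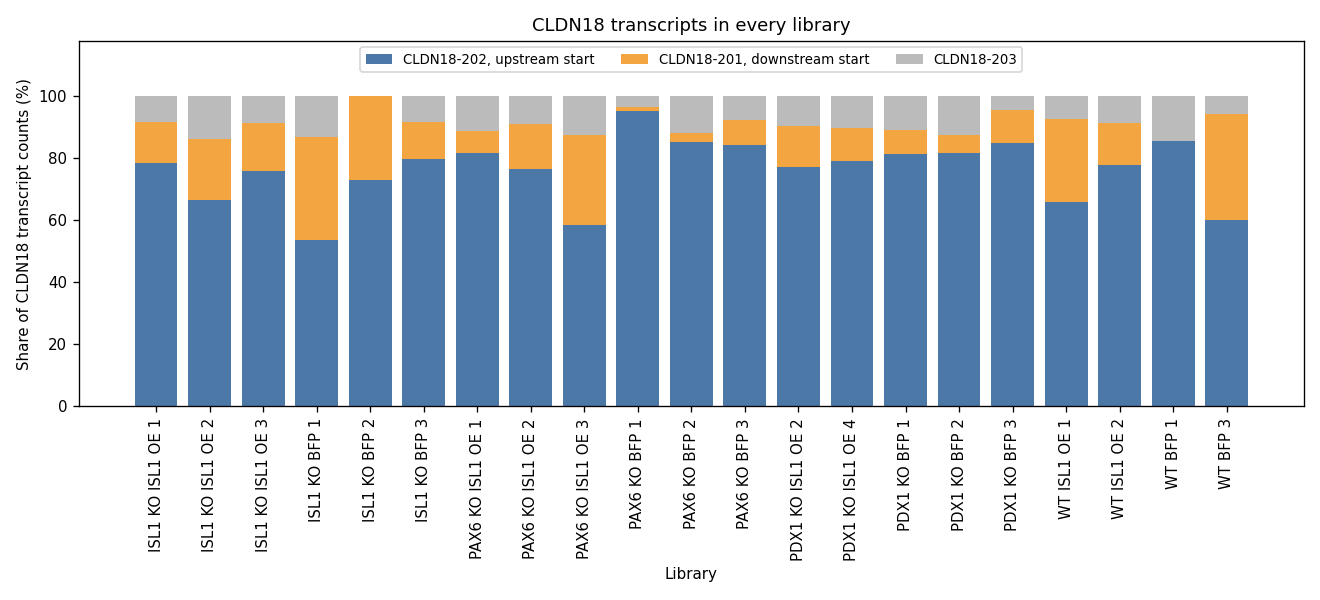
Stacked bars of the share of CLDN18 transcript counts, in percent, assigned to CLDN18-202 (upstream start), CLDN18-201 (downstream start) and CLDN18-203 in each of the 21 libraries. CLDN18-202 holds 53.8% to 95.4% and is larger than CLDN18-201 in every library.

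Levels of some members were correlated over the 21 libraries. The correlations describe libraries that share genotype, vector and differentiation, and carry no test. Pearson's r of log2 CPM was 0.94 between DUOX2 and DUOXA2, 0.92 between DUOXA2 and CEACAM6, and 0.86 between MUC13 and CEACAM6. It was 0.86 between TFF2 and TFF3 and 0.82 between AGR2 and AGR3. Without the PDX1 KO ISL1 OE libraries and PAX6 KO ISL1 OE replicate 3, 18 libraries, these values were 0.96, 0.92, 0.91, 0.71 and 0.75. AGR3 correlated with DUOX2, DUOXA2, MUC13 and CEACAM6 at 0.65, 0.71, 0.55 and 0.71 over 21 libraries. Over 18 these values were 0.85, 0.84, 0.8 and 0.88. The surface genes were grouped for their fall in KO lines of these same libraries, so their correlations are not separate evidence. TFF3 was negatively correlated with the surface genes. With MUC13, CEACAM6, DUOX2 and DUOXA2 its r was -0.35, -0.33, -0.23 and -0.22 over 21 libraries. Over 18 it was -0.66, -0.68, -0.5 and -0.59. TFF3 was higher in the KO BFP libraries, where these genes were lower, so the sign restates that contrast in part. CLDN18 reached at most 0.59 with any other member.

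**Figure D5:**
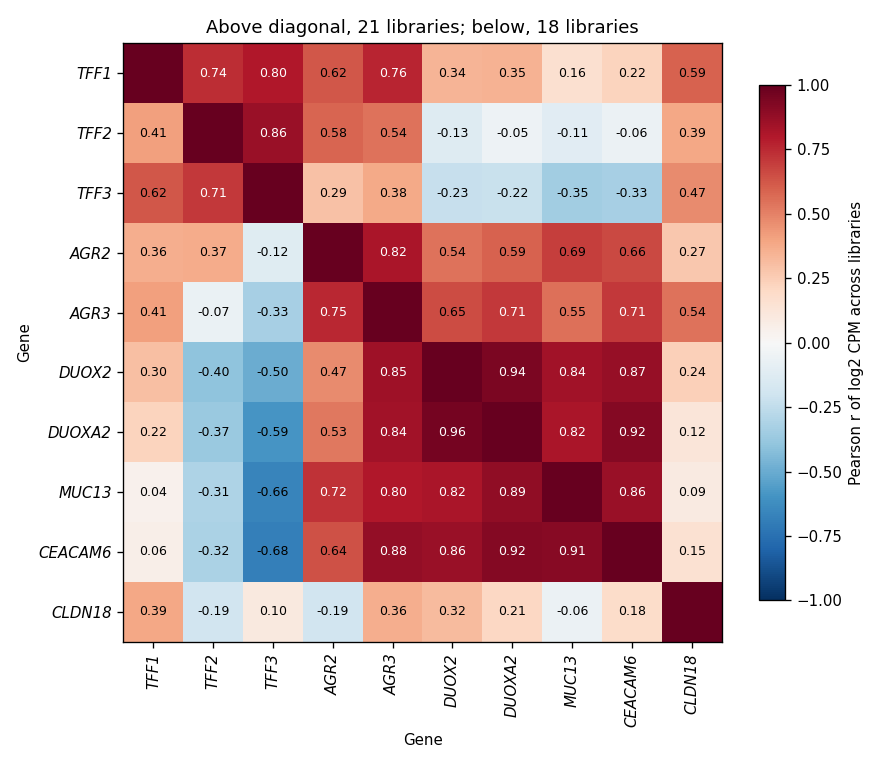
Pearson correlation of log2 CPM between the 10 genes, over all 21 libraries above the diagonal and, below it, over the 18 left without both PDX1 KO ISL1 OE libraries and PAX6 KO ISL1 OE replicate 3. DUOX2, DUOXA2, MUC13 and CEACAM6 form a block of high values, and AGR3 is at 0.8 to 0.88 with each over 18 libraries. TFF2 and TFF3 correlate at 0.86 over 21 libraries, and CLDN18 reaches at most 0.59.

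For 9 of the 10 members, the genes with the most similar pattern over 21 libraries are given by the 3 highest Pearson correlations. For TFF2 they were PRSS2 (0.926), ADH1C (0.869) and PRSS1 (0.864), where PRSS1 and PRSS2 encode trypsinogens of pancreatic acinar cells. For TFF3 they were CATIP (0.882), TFF2 (0.863) and PRSS2 (0.848), and for TFF1 PRR15L (0.843), AC005392.2 (0.833) and RAMP3 (0.825). For AGR2 they were CTSH (0.886), MIR122HG (0.884) and UGT2B7 (0.884), and for AGR3 PRAP1 (0.916), NEURL3 (0.915) and LDLRAD1 (0.909). For DUOX2 they were DUOXA2 (0.936), GPR39 (0.928) and CXCL16 (0.927), and for DUOXA2 SBSPON (0.957), GNAT3 (0.955) and LINC02302 (0.954). For MUC13 they were ADGRG7 (0.965), SLC7A7 (0.959) and OTUD1 (0.956), and for CEACAM6 HPGD (0.951), CLTRN (0.946) and RIPK2 (0.942). TFF1 had the lowest such values of these 9.

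Other genes of the same pathways were read from lists that hold none of the members. Over all genes tested, 4.48%, 4.25% and 6.84% were lower in ISL1 KO, PAX6 KO and PDX1 KO BFP than in WT BFP cells. In the same order 2.05%, 2.41% and 4.56% were higher. These shares stand beside every list compared with WT BFP. Among 20 intestinal genes tested against WT BFP, 4 were lower in ISL1 KO BFP, 6 in PAX6 KO BFP and 9 in PDX1 KO BFP cells, and 1 was higher in each. The higher gene was LGR5, a receptor of intestinal stem cells, in ISL1 KO (4.92 ± 1.03, adjusted p = 0.00824) and PAX6 KO (4.93 ± 1.03, adjusted p = 0.00937), and PHGR1, a gut epithelial gene, in PDX1 KO (1.68 ± 0.43, adjusted p = 0.0180). LGALS4, a galectin of the gut brush border, was lower in ISL1 KO (-3.81 ± 0.86, adjusted p = 0.0134), PAX6 KO (-3.76 ± 0.86, adjusted p = 0.0155) and PDX1 KO (-4.94 ± 0.91, adjusted p = 0.00241). The list's median log2 difference was -0.96, -1.61 and -2.52, against 0.03, 0.00 and 0.02 over all genes. ALPI, intestinal alkaline phosphatase, was lower in PAX6 KO (-2.88 ± 0.73, adjusted p = 0.0253) and PDX1 KO (-5.01 ± 0.81, adjusted p = 0.00107). Of 14 mucosal defence genes tested, 5, 6 and 6 were lower and 2, 0 and 0 higher in ISL1 KO, PAX6 KO and PDX1 KO. CXCL8, a neutrophil chemokine, was lower in ISL1 KO (-3.60 ± 0.53, adjusted p = 0.000619) and PAX6 KO (-2.13 ± 0.50, adjusted p = 0.0173), and LYZ, lysozyme, was lower in PDX1 KO (-2.42 ± 0.39, adjusted p = 0.00102). In ISL1 KO the higher genes were LYZ (1.49 ± 0.41, adjusted p = 0.0380) and LCN2, an antibacterial lipocalin (2.08 ± 0.59, adjusted p = 0.0427). The summed mucosal defence list was 1005 to 1459 CPM in ISL1 KO BFP cells, against 579.9 to 588 CPM in WT BFP cells.

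Of 15 protein disulfide isomerases tested, 2 were lower in ISL1 KO BFP, 4 in PAX6 KO BFP and 6 in PDX1 KO BFP cells, and none was higher. PDIA6 was lower in ISL1 KO (-0.80 ± 0.18, adjusted p = 0.0143), PAX6 KO (-1.0 ± 0.18, adjusted p = 0.00419) and PDX1 KO (-1.30 ± 0.18, adjusted p = 0.000466). Of 21 tight junction and epithelial genes, 6, 3 and 5 were lower and none was higher. CLDN1 was lower in ISL1 KO (-1.52 ± 0.27, adjusted p = 0.00302), PAX6 KO (-1.77 ± 0.28, adjusted p = 0.00136) and PDX1 KO (-2.37 ± 0.28, adjusted p = 0.000193). CLDN4, another claudin, was lower in ISL1 KO (-1.52 ± 0.25, adjusted p = 0.00143), PAX6 KO (-1.78 ± 0.25, adjusted p = 0.000602) and PDX1 KO (-1.03 ± 0.25, adjusted p = 0.0125). CEACAM1, a sister of CEACAM6, was lower in ISL1 KO (-1.77 ± 0.29, adjusted p = 0.00132) and PAX6 KO (-2.39 ± 0.29, adjusted p = 0.000153). In the whole CEACAM list 2, 1 and 2 of 5 tested genes were lower and none was higher.

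Of 15 goblet and mucus genes tested, 0, 1 and 2 were lower in ISL1 KO, PAX6 KO and PDX1 KO, and none was higher by edgeR. Over all genes 4.48%, 4.25% and 6.84% were lower and 2.05%, 2.41% and 4.56% higher. The small list counts in this paragraph were not tested against those shares. ZG16, a goblet cell lectin, was lower in PAX6 KO (-2.31 ± 0.64, adjusted p = 0.0377) and PDX1 KO (-3.56 ± 0.66, adjusted p = 0.00262). Of 13 gastric genes tested, 1, 2 and 1 were higher and 0, 0 and 2 lower. SOX2, a transcription factor of the stomach and foregut, was higher in PAX6 KO (2.69 ± 0.49, adjusted p = 0.00398) and PDX1 KO (2.75 ± 0.49, adjusted p = 0.00195). VSIG1, a junction protein of gastric epithelium, was higher in PAX6 KO (2.44 ± 0.55, adjusted p = 0.0139), and the gene higher in ISL1 KO was LIPF, gastric lipase, listed at 0 in both WT BFP libraries. SULT1C2, a sulfotransferase (-2.38 ± 0.35, adjusted p = 0.000575), and CTSE, cathepsin E (-2.20 ± 0.46, adjusted p = 0.00511), were lower in PDX1 KO. Among 15 epithelial transcription factors, 2, 2 and 3 were lower and 0, 0 and 1 higher. PPARG, a nuclear receptor, was lower in ISL1 KO (-1.04 ± 0.26, adjusted p = 0.0256), PAX6 KO (-2.24 ± 0.27, adjusted p = 0.000153) and PDX1 KO (-2.06 ± 0.27, adjusted p = 0.000274). Of 9 NADPH oxidase genes, 1, 0 and 1 were lower and 0, 0 and 2 higher, the 2 being DUOX1 and DUOXA1.

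Markers of other cell types were read in the same way. Over all genes 4.48%, 4.25% and 6.84% were lower and 2.05%, 2.41% and 4.56% higher in ISL1 KO, PAX6 KO and PDX1 KO BFP cells. Of 12 liver genes, 6 were lower in ISL1 KO BFP, 8 in PAX6 KO BFP and 10 in PDX1 KO BFP cells. The summed liver list was 9107 to 12988 CPM in ISL1 KO, 7810.0 to 10483 CPM in PAX6 KO and 6580.0 to 7231 CPM in PDX1 KO BFP cells, against 25205 to 27596 CPM in WT BFP cells. Of 12 duct and pancreatic progenitor genes, 3, 3 and 5 were lower. Of 13 islet endocrine genes, 1, 1 and 1 were lower and 0, 0 and 2 higher, and of 11 mesenchyme genes 1, 0 and 2 were lower. The islet endocrine and mesenchyme counts are small and are not read as a change of these lists. None of 3 airway genes tested was called. The part of these cell types in the members' differences was not tested.

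Calls among the lists in PDX1 KO ISL1 OE against PDX1 KO BFP cells were mostly higher. With all libraries 9.09% of all genes were higher in this comparison and 5.34% lower. The fits without replicate 2 or 4 leave 1 ISL1 OE library, and the share of all genes called lower in them is not given. Of the genes tested, those higher were 9 liver, 8 duct, 7 intestinal, 6 tight junction, 6 disulfide isomerase, 4 gastric, 4 mucosal defence, 4 epithelial transcription factor, 3 goblet, 2 NADPH oxidase, 2 mesenchyme and 1 CEACAM gene. Those lower were 3 islet endocrine, 2 epithelial transcription factor, 2 NADPH oxidase and 1 disulfide isomerase gene, and no airway gene was called. Without replicate 4 those higher were 1 liver, 4 duct, 2 intestinal, 2 tight junction, 3 disulfide isomerase, 4 gastric, 2 mucosal defence, 3 epithelial transcription factor, 2 goblet, 1 NADPH oxidase, 1 airway and 1 CEACAM gene, and 1 islet endocrine, 1 disulfide isomerase and 1 intestinal gene were lower. Without replicate 2 those higher were 10 liver, 8 duct, 7 intestinal, 10 tight junction, 7 disulfide isomerase, 4 gastric, 9 mucosal defence, 4 epithelial transcription factor, 4 goblet, 3 NADPH oxidase, 2 mesenchyme, 3 CEACAM and 1 islet endocrine gene. Those lower without replicate 2 were 7 epithelial transcription factor, 6 tight junction, 5 islet endocrine, 4 disulfide isomerase, 2 goblet, 2 NADPH oxidase, 1 gastric, 1 intestinal, 1 mucosal defence and 1 airway gene. Calls over all genes moved between these fits as well, so the move of any 1 list, liver included, cannot be told from that.

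Neighbours within 100 kb of a member's start were read next, 15 protein-coding genes that are not members, of which 10 were tested. In PDX1 KO BFP cells 4 of them were higher, where 4.56% of all genes were, and none was lower. In ISL1 KO 1 was higher and 1 lower, where 2.05% and 4.48% of all genes were. In PAX6 KO 1 was higher, where 2.41% of all genes were. The lower gene in ISL1 KO was CEACAM5, beside CEACAM6 and under 1 CPM in every library (-5.86 ± 1.65, adjusted p = 0.0423). TMPRSS3, a protease gene beside TFF1, was higher in PDX1 KO (2.40 ± 0.56, adjusted p = 0.00996). SHF, beside DUOX2, was higher in ISL1 KO (1.73 ± 0.30, adjusted p = 0.00190), PAX6 KO (1.11 ± 0.29, adjusted p = 0.0286) and PDX1 KO (1.14 ± 0.29, adjusted p = 0.0166). DUOX1 and DUOXA1 were the others, and both were lower in PDX1 KO ISL1 OE than in PDX1 KO BFP cells (-1.85 ± 0.59, adjusted p = 0.0440 and -2.64 ± 0.52, adjusted p = 0.00433). Without PDX1 KO ISL1 OE replicate 4 both calls were lost (-1.0, adjusted p = 0.325 and -2.04, adjusted p = 0.0669), and without replicate 2 both were kept (-3.92, adjusted p = 8.22e-05 and -3.58, adjusted p = 0.000471). In PDX1 KO BFP against WT BFP cells, DUOX1 and DUOXA1 thus differed in sign from DUOX2 and DUOXA2 beside them.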

How the data were processed

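Libraries were prepared with KAPA EvoPrep after SMART-Seq v4 amplification, per the labels' protocols, a chemistry that keeps neither strand nor molecular identifiers, so amplified copies count as reads. The submitters' processing notes name STAR and GRCh38; no source used here names the counting program. The authors deposited estimated counts per gene and per transcript for each library and lane, and TPM scaled for length and depth within each. GEO describes 8 samples, and the replicates are table columns matched to them by name. The 21 libraries were read on 4 lanes each (lowest lane correlation 0.99); 12 other columns, of 3 libraries whose names are those of further WT BFP, PDX1 KO ISL1 OE and WT ISL1 OE replicates, were not used, since the deposited list of runs and libraries leaves them out and the series counts 2 replicates in those groups, and 1 repeated identical column was counted once. Lanes were summed and counts rounded to whole numbers. Of 38592 genes, 34752 had a symbol.

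Genes were tested with edgeR 4.0.16 (R 4.3.3; TMM, filterByExpr, a mean for each of the 8 groups, quasi-likelihood test, 22184 genes, common dispersion 0.114), with Benjamini-Hochberg adjustment over all of them and calls at an adjusted p under 0.05. Intervals are 95%. Alternatives were relative log expression scaling, library size alone, no filter, DESeq2 1.42.0, the groups compared alone, a replicate block, a fit without PAX6 KO ISL1 OE replicate 3 and PDX1 KO ISL1 OE replicate 4, and leaving out each library; a term for the lane set and a number block across genotypes were chosen after seeing the data. P-values measure the spread between the libraries. Named were the 10 members, the 3 genes most correlated with each (those for CLDN18 are not reported here), protein-coding neighbours within 100 kb, up to 4 genes per list with the smallest adjusted p among those called, and the edited genes; INS, and list genes not named by that rule, were chosen after their values were seen. The members and lists were chosen with earlier results of these data known. Promoter windows of TFF1, TFF2 and TFF3 were not used here.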

Additional observations from a re-analysis of the deposited data

Results flagged for a closer look

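The response of AGR3 to the ISL1 vector differed between PDX1 KO and WT cells by 2.71 on the log2 scale (2.71 ± 0.48, adjusted p = 0.00950, edgeR), which is a difference between genotypes in the same contrast. Both PDX1 KO ISL1 OE libraries were above all 3 PDX1 KO BFP libraries (68.6 and 78.2 CPM with ISL1 OE, against 7.48, 7.22 and 11.6 CPM with BFP). In WT the ISL1 OE libraries had 20.3 and 28.0 CPM, against 20.9 and 16.8 CPM with BFP, and overlapped in CPM. The value ran from 2.41 to 2.97 over the alternatives tried, and the call was lost without WT BFP replicate 1, WT ISL1 OE replicate 1 or WT ISL1 OE replicate 2, and in a fit of these 4 groups alone.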

How the results depend on the processing

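Of 35 gene calls, 18 kept their call without each single library and 17 lost it at least once. The estimate that changed sign was CLDN18 in PDX1 KO ISL1 OE against PDX1 KO BFP, -0.80 without PDX1 KO ISL1 OE replicate 2 and 3.43 without replicate 4. CLDN18 was not called lower without replicate 2. Under the other settings 23 kept their call every time, 12 lost it at least once and 0 changed sign. No shares of all genes are given beside the leave-one-out counts that follow. A drop in members there cannot be told from a drop over all genes. Without 1 library, the number of members called ran from 4 to 7 for ISL1 KO BFP, 3 to 6 for PAX6 KO BFP and 5 to 7 for PDX1 KO BFP against WT BFP, from 0 to 3 for the vector in PAX6 KO, 6 to 9 for the vector in PDX1 KO and 0 to 6 for PDX1 KO minus WT. Leave-one-out counts stayed at 0 for ISL1 KO against PAX6 KO BFP and for the vector in WT and ISL1 KO, at 1 for ISL1 KO against PDX1 KO BFP and at 2 for PAX6 KO against PDX1 KO BFP.

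Each count here is followed by the share of all genes called in the same fit. Without PAX6 KO ISL1 OE replicate 3 and PDX1 KO ISL1 OE replicate 4, 8 (28.8%) were called in PAX6 KO BFP. That fit called 2 (10.7%) in ISL1 KO against PAX6 KO, 5 (26.1%) in ISL1 KO against PDX1 KO and 4 (20.1%) in PAX6 KO against PDX1 KO. For the vector it called 3 (1.69%) in WT, 2 (6.02%) in PAX6 KO and 1 (5.92%) in ISL1 KO. With only the groups compared the counts were 2 (7.91%) for ISL1 KO against PAX6 KO, 6 (26.3%) for ISL1 KO against PDX1 KO and 4 (15.5%) for PAX6 KO against PDX1 KO, and for the vector 2 (1.43%) in WT, 1 (7.31%) in ISL1 KO, and 0 (0%) in PAX6 KO, PDX1 KO and PDX1 KO minus WT alike. With DESeq2 they were 1 (4.27%) and 3 (10.3%) for ISL1 KO against PAX6 KO and PDX1 KO, and for the vector 1 (0.281%) in WT, 4 (2.38%) in PAX6 KO, 1 (1.71%) in ISL1 KO and 5 (5.5%) in PDX1 KO minus WT. Without a filter they were 1 (0.0389%) for the vector in WT, 2 (0.221%) in PAX6 KO and 2 (0.988%) for PDX1 KO minus WT, and with library size alone 0 (0.248%) in PAX6 KO. The cause was not tested.

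Replicate numbers were compared through each library's deviations from its group mean in log2 CPM, not through the levels themselves. Within a group these deviations sum to 0, which ties the values of the pairs to each other. In ISL1 KO and PAX6 KO the vectors share 3 replicate numbers each. There the deviations of the 6 same-numbered pairs of libraries correlated at 0.099 to 0.382, and those of other pairs at -0.298 to 0.093. In PDX1 KO and WT, whose vectors share 1 number each, the same-numbered pair was at -0.222 and -0.031, and other pairs at -0.277 to 0.277 and -0.031 to 0.031. Of 8 same-numbered pairs 3 were under 0.1: those of PDX1 KO and WT, and 1 in ISL1 KO at 0.099. In PDX1 KO and WT the values of the 2 ISL1 OE libraries mirror each other, so those pairs cannot decide on pairing. The numbers were not used as pairing in the main fit. Still, the 12 libraries of ISL1 KO and PAX6 KO each correlated best with their own number, a hint from the data and not the design. With the replicate block, fitted within ISL1 KO and PAX6 KO, 0 members were called for the vector in PAX6 KO, where 0.158% of all genes were. For PDX1 KO minus WT 2 were called, where 0.762% of all genes were. With a number block across genotypes, added after seeing the data, the counts were 1 (5.54%) and 4 (12.8%) for ISL1 KO against PAX6 KO and PDX1 KO, and for the vector 1 (0.176%) in WT, 3 (2.98%) in PAX6 KO, 1 (2.15%) in ISL1 KO, 6 (2.55%) in PDX1 KO, where CEACAM6, DUOXA2 and MUC13 lost their calls, and 2 (0.708%) in PDX1 KO minus WT. The vector in PDX1 KO had 8 members (9.51%) with library size alone, CLDN18 losing its call. Without PAX6 KO ISL1 OE replicate 3 and PDX1 KO ISL1 OE replicate 4, 1 ISL1 OE library is left in PDX1 KO. No count from that fit is given for the vector in PDX1 KO or for PDX1 KO minus WT. Lanes 5 to 8 held 5 libraries and lanes 1 to 4 held 16, and with a term for this lane set, also added after seeing the data, the member counts did not change. Library size alone moved the median log2 difference of all genes to 0.205 for ISL1 KO BFP, 0.236 for PAX6 KO BFP and 0.131 for PDX1 KO BFP, and to -0.237 for PDX1 KO minus WT; it called 504 genes higher and 664 lower in ISL1 KO, against 455 and 994 with TMM, and 698 and 558 in PAX6 KO, against 534 and 942. With 2 WT BFP libraries, every KO comparison depends on both.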

Other observations

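The list genes VSIG1 and NOX4 were higher with the ISL1 vector in every genotype. VSIG1, a junction protein of gastric epithelium, had 23.1 to 34 CPM in WT ISL1 OE cells, against 1.24 to 1.41 CPM in WT BFP cells (4.43 ± 0.62, adjusted p = 0.00929, edgeR). In ISL1 KO cells it had 21.9 to 26.0 CPM with the ISL1 vector, against 1.44 to 1.69 CPM with BFP (3.95 ± 0.49, adjusted p = 0.000998). In PAX6 KO cells it had 26.0 to 52.0 CPM with the ISL1 vector, against 6.51 to 8.09 CPM with BFP (2.39 ± 0.45, adjusted p = 0.0278). In PDX1 KO cells it had 3.89 to 26.7 CPM with the ISL1 vector, against 0.840 to 1.28 CPM with BFP (3.83 ± 0.51, adjusted p = 0.000299), 1.93, adjusted p = 0.000262 without ISL1 OE replicate 2 and 4.67, adjusted p = 7.11e-07 without replicate 4. The ranges overlapped in none of the 4 genotypes.

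NOX4, a hydrogen peroxide-releasing oxidase related to DUOX2, had 35.0 to 42.0 CPM in WT ISL1 OE cells, against 5.26 to 6.4 CPM in WT BFP cells (2.72 ± 0.37, adjusted p = 0.00929). It had 14.7 to 25.4 CPM in ISL1 KO ISL1 OE cells, against 1.13 to 1.93 CPM in ISL1 KO BFP cells (3.75 ± 0.32, adjusted p = 3.62e-05). It had 20.7 to 33.2 CPM in PAX6 KO ISL1 OE cells, against 5.40 to 6.53 CPM in PAX6 KO BFP cells (2.16 ± 0.30, adjusted p = 0.00390), and 6.27 to 12.4 CPM in PDX1 KO ISL1 OE cells, against 1.52 to 2.39 CPM in PDX1 KO BFP cells (2.27 ± 0.32, adjusted p = 0.00052), 1.77, adjusted p = 0.000718 without ISL1 OE replicate 2 and 2.71, adjusted p = 0.000155 without replicate 4. For NOX4 the ranges overlapped in no genotype either.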
